A study of Mus musculus with 117 samples.

Results

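Stable broad state 13 domains are long stretches of the mouse autosomes that carried the same chromatin state, number 13 of 14, in hepatocytes of nearly all strains studied. They were chosen by their state: 200-bp bins in state 13 in at least 7 of 9 strains were merged where adjacent, and merged regions of 5 kb or more were kept. This gave 8325 domains out of 55563 stable state 13 regions of any length. Hepatocytes are the main cell type of the liver. They came from female mice 12 weeks old of the laboratory strains C57BL/6J, 129S1/SvImJ, A/J, DBA/2J, NOD/ShiLtJ and NZO/HlLtJ and of the wild-derived strains CAST/EiJ, PWK/PhJ and WSB/EiJ, with no treatment or engineered allele named. Each strain had 13 chromatin immunoprecipitation sequencing (ChIP-seq) libraries, which were 4 histone marks (H3K4me1, H3K4me3, H3K27ac and H3K27me3) in 3 mice each and 1 input, and the deposited segmentation of a strain combines them. Each strain therefore gave 1 value, n is 9 throughout, and neither the error between mice of a strain nor the sequencing depth is known.

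A chromatin state is a recurrent combination of marks to which a segmentation assigns each bin. The marks that define state 13, or any other state number, are not given in the sources used here, so the numbers serve only as names. As background, H3K4me3 marks promoters, H3K4me1 and H3K27ac mark enhancers and active promoters, and H3K27me3 is laid down by Polycomb complexes, which in differentiated tissues are known to cover developmental regulator genes over long stretches. Promoters rich in CG dinucleotides are a known recruitment platform of Polycomb complexes and of the enzymes that write H3K4me3. A state call on bulk cells cannot tell a smaller share of cells carrying a state from less mark in each cell.

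Sequences of 6 promoters are shown because they mark the contrast that the results return to, between starts inside a domain, starts in the short gaps between domains, and starts with no domain. Each is the 250 bases before the RefSeq start in GRCm38.p6, 5′ to 3′ on the gene's strand, with every CG in capitals (CG reads the same on both strands). Hoxd11 (chr2:74679308-74679557, plus strand), Pou4f2 (chr8:78436648-78436897, minus strand) and Slc17a6 (chr7:51621580-51621829, plus strand) started inside domains. Hoxd1 (chr2:74762730-74762979, plus strand) and Npy (chr6:49822460-49822709, plus strand) started in gaps of 1800 bp and 1400 bp between domains. Alb (chr5:90460620-90460869, plus strand), the serum albumin gene of hepatocytes, touched no domain.
Hoxd11: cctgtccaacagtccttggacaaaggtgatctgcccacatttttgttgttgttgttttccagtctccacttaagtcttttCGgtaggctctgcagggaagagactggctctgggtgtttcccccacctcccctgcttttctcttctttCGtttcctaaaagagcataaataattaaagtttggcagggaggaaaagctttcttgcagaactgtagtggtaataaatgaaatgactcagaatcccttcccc
Pou4f2: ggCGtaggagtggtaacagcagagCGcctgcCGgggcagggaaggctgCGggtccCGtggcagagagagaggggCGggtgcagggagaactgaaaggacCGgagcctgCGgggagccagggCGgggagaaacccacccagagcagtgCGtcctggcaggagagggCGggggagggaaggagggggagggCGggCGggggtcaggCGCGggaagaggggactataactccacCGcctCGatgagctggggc
Slc17a6: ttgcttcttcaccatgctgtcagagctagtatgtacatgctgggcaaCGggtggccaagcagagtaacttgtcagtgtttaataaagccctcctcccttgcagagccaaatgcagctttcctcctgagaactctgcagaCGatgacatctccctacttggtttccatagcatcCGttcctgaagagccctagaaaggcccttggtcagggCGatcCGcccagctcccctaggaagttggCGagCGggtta
Hoxd1: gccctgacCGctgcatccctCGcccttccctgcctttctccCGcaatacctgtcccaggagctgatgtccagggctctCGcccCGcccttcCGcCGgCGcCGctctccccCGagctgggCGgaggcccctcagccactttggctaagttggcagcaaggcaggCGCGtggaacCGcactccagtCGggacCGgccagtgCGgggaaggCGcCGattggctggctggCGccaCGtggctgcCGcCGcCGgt
Npy: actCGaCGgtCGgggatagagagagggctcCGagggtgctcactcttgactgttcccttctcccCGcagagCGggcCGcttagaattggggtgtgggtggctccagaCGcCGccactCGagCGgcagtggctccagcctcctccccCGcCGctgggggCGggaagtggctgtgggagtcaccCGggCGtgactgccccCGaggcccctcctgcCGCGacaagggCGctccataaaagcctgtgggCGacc
Alb: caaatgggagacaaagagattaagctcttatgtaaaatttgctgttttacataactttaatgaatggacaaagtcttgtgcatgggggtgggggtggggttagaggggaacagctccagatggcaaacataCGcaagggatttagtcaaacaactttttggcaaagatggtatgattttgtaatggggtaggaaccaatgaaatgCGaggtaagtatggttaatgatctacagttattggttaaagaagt
The 250 bases before Hoxd1 held 24 CG and those before Npy 21, numbers reached by 16.2% and 22.4% of all 20085 autosomal protein-coding promoters in the RefSeq table. The domain promoters held 17 CG before Pou4f2, 7 before Slc17a6 and 2 before Hoxd11, numbers reached by 32.5%, 59.8% and 85.4% of promoters. The Alb promoter also held 2. These 6 were picked after their values had been seen.

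The domains covered 77.6 Mb, or 3.15% of the autosomes, and 52.6% of all stable state 13 sequence. The median domain was 7400 bp long, the quartiles were 6000 and 10400 bp, and the longest domain was 142200 bp. Domains of 10 kb or more numbered 2354, those of 20 kb or more 377, and those of 50 kb or more 19. The length threshold fell in a continuous distribution: 478 domains were exactly 5000 bp long, and 494 regions of 4800 bp were just too short. Domains were unevenly spread, from 1.68 per Mb on chromosome 10 to 6.25 per Mb on chromosome 19. Protein-coding genes covered 37.1% of domain bins against 40.1% of all autosomal bins, and 4620 domains (55.5%) overlapped no protein-coding gene. On chromosome X, which the choice left out, the same rule gave 4287 regions that covered 82.5% of the chromosome.

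Within the domains 59.2% of bins carried state 13 in all 9 strains, 26.4% carried it in 8 and 14.4% carried it in 7. These values follow from the choice and are given as description. Of the 8325 domains, 67 were state 13 in every bin of every strain, and 1195 were at least 90% state 13 in each strain. At the other end, 606 domains (7.28%) were under 10% state 13 in at least 1 strain. In PWK/PhJ 386 domains were under 10% and in CAST/EiJ 183, whereas the other strains had between 1 (129S1/SvImJ) and 30 (WSB/EiJ).

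**Figure D1:**
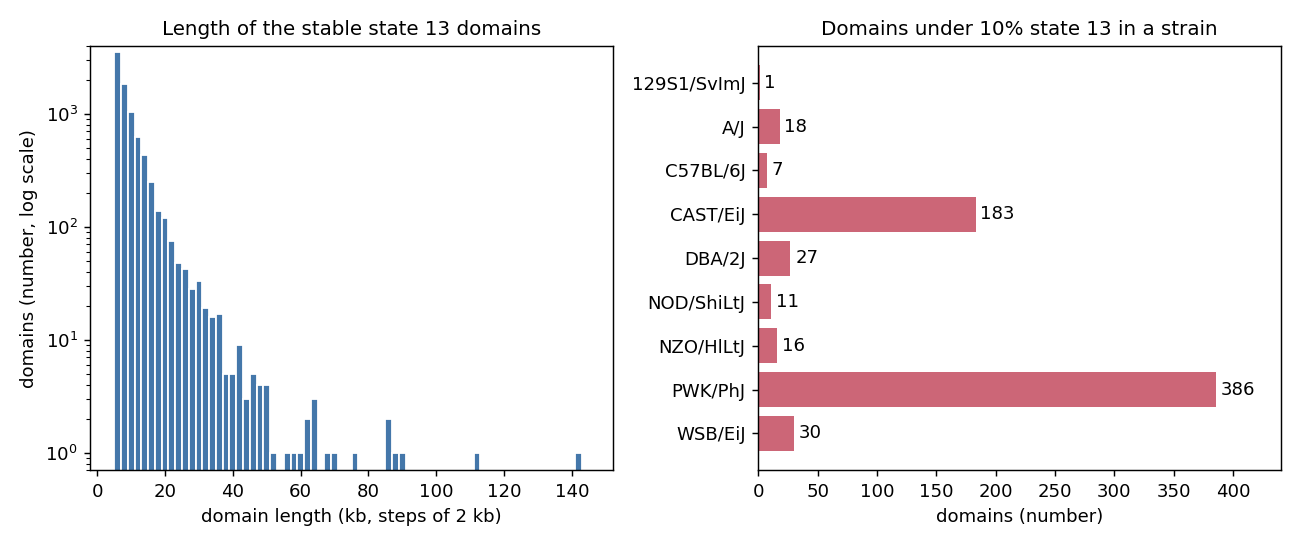
Left, number of domains (log scale) by length in steps of 2 kb. Right, number of the 8325 domains that were under 10% state 13 in each strain; PWK/PhJ (386) and CAST/EiJ (183) stand above the other 7 strains (1 to 30).

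PWK/PhJ and CAST/EiJ stood apart in coverage of the domains while their total state 13 was within the range of the other strains. State 13 covered 78.9% of domain bins in PWK/PhJ and 88.8% in CAST/EiJ, against 95.8% to 98.0% in the other 7 strains. Over all autosomal bins, state 13 covered 11.4% in PWK/PhJ and 10.4% in CAST/EiJ, inside the range of 9.40% (C57BL/6J) to 13.1% (WSB/EiJ). Bins of the domains that were not in state 13 were in state 14, the most widespread state of the genome, in 94.8% ± 3.02 of cases (SD, n = 9). State 10 came next with 3.53% ± 2.57. Over all autosomal bins not in state 13, state 14 made up 86.1% and state 10 made up 0.175%. Each strain also had long state 13 segments of its own: 13233 (C57BL/6J) to 19080 (WSB/EiJ) of 5 kb or more, and the domains held 46.0% ± 6.68 of their length. Of all 8325 domains, those under 10% numbered 183 in CAST/EiJ, 386 in PWK/PhJ, 18 in A/J and 27 in DBA/2J. CAST/EiJ and PWK/PhJ shared 55, which is 30.1% of the CAST/EiJ set and 14.2% of the PWK/PhJ set. A/J and DBA/2J shared 7 such domains, 38.9% of the A/J set and 25.9% of the DBA/2J set. The choice needs at least 7 of 9 strains in state 13 in each bin, which limits the overlaps that can occur. These overlaps were not tested.

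Whether a long stable region predicts the state of a further strain was asked by leaving each strain out in turn. Domains and shorter stable regions were defined on the other 8 strains (state 13 in at least 7 of them), and state 13 was then measured in the strain left out, which the choice had not used. In these domains 93.0% ± 7.02 of bins were in state 13 in the strain left out (SD, n = 9; lowest 76.4% in PWK/PhJ, median 95.8%, highest 97.7% in 129S1/SvImJ). In stable regions under 5 kb the share was 84.5% ± 9.46 (lowest 63.1%, median 87.7%, highest 92.8%). Over all autosomal bins it was 11.1% ± 1.36. The groups overlapped across strains, but within each strain the domains were higher, by 8.51 ± 3.00 percentage points (positive for 9 of 9, two-sided exact permutation test that flips signs over strains, p = 0.0039, the smallest that 9 strains allow). It was 5.05 points where all of the other 8 strains had to carry state 13, 12.5 points where at least 6 had to, and 7.54 points without CAST/EiJ and PWK/PhJ, an alternative chosen after seeing the data.

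The share rose with length in the strain left out. It was 91.7% ± 7.82 for domains of 5 to 10 kb, 93.9% ± 6.91 for 10 to 20 kb, 96.4% ± 4.55 for 20 to 50 kb and 98.9% ± 1.91 for 50 kb or more (SD, n = 9). The last class held between 11 and 15 domains per strain. PWK/PhJ had the lowest value in every class and reached 95.0% in the longest. Position within a domain mattered too: the outermost 200-bp bin was in state 13 in 82.9% ± 10.7 of cases, and the bin from 2201 to 2400 bp inside the edge in 93.9% ± 6.82. Because short regions consist largely of edges, the outermost bins alone were also compared, a comparison chosen after seeing the data. In them state 13 was found in 82.9% of domain bins and 77.6% of bins of shorter regions, a difference of 5.28 ± 2.35 points (higher in 9 of 9 strains, exact sign-flip permutation test, p = 0.0039).

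**Figure D2:**
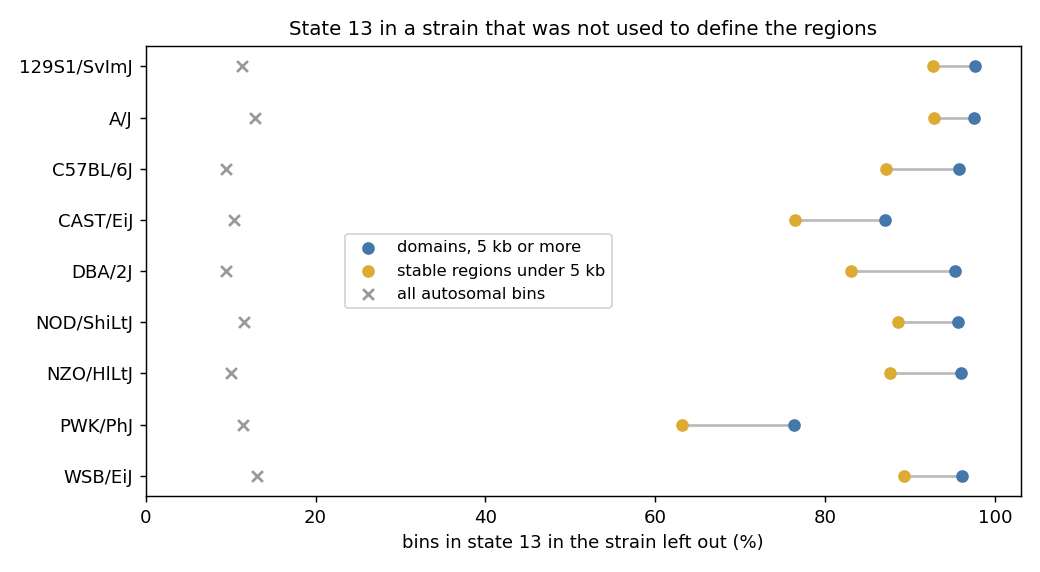
Percentage of bins in state 13 in the strain left out, for domains of 5 kb or more (blue), shorter stable regions (yellow) and all autosomal bins (crosses), 1 row per strain. Domains lie right of shorter regions in 9 of 9 strains, and PWK/PhJ has the lowest value of both (76.4% and 63.1%).

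State 10 was more frequent next to the domains than far from them. The test took the bins of a strain that were not in state 13 and compared their states in the 1 kb outside the domains with those 20 to 21 kb outside. State 10 made up 11.5% ± 3.40 of such bins near the domains (lowest 6.07% in PWK/PhJ, median 10.9%, highest 16.8% in WSB/EiJ) and 0.987% ± 0.249 far from them. Over all autosomal bins not in state 13 it made up 0.175%. The near and far values did not overlap, and the difference was 10.5 ± 3.16 points (higher in 9 of 9 strains, exact sign-flip permutation test, adjusted p = 0.0042 by Benjamini-Hochberg over 13 states). With shares taken among all flank bins, state 13 included, the difference was 4.99 points, and with a flank of 2 kb it was 6.31 points.

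Of the 13 other states, 6 were higher beside the domains (46.2%) and 7 were lower (53.8%). The shares of a strain add up to a whole, so these calls are not independent, and the same holds for the gaps below. The 1 kb flanks also included the short gaps between domains. Those higher were states 5, 6, 7, 10, 11 and 12. State 12 made up 2.95% ± 1.03 near the domains against 0.412% ± 0.0805 far away, and state 11 made up 1.26% ± 0.329 against 0.184% ± 0.0420 (both adjusted p = 0.0042, exact permutation test, 9 of 9 strains). State 6, with 2.45% ± 0.500 against 1.74% ± 0.145, was higher in 8 of 9 strains (adjusted p = 0.0078, exact permutation test). That call ended when all flank bins were counted (adjusted p = 0.52, exact permutation test). The lower states were 1, 2, 3, 4, 8, 9 and 14. State 14 fell by 12.8 ± 3.68 points, from 93.0% to 80.2%. With all flank bins counted the differences were -22.8 points for state 14, 1.20 for state 12 and 0.51 for state 11, and with a flank of 2 kb it was -8.16 for state 14.

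The states differed in where they peaked. State 10 was highest in the first 200 bp outside a domain, at 20.7% ± 6.70, and was 3.37% ± 1.06 at 1801 to 2000 bp. State 12 was 1.48% ± 0.808 in the first 200 bp and 3.68% ± 1.25 at 401 to 600 bp, so it lay a little farther out. State 6 was likewise low next to the edge, 0.977% ± 0.568, and 3.10% ± 0.614 at 601 to 800 bp. These profiles were not tested.

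Short gaps between neighbouring domains were richer still in state 10. There were 1108 gaps of 2 kb or less. State 10 made up 37.0% ± 8.13 of their bins that were not in state 13 (lowest 21.2% in PWK/PhJ, median 38.1%, highest 45.7% in WSB/EiJ). In the outer 1 kb of the 5171 domains with no neighbour within 5 kb it made up 7.75% ± 2.52 (lowest 3.88%, median 7.22%, highest 12.1%). Every strain's gap value lay above every strain's flank value, and the difference was 29.2 ± 5.92 points (9 of 9 strains, exact sign-flip permutation test, adjusted p = 0.0063). It was 46.6 points with gaps of 1 kb or less and 12.7 points with gaps of up to 5 kb. Gaps have a domain on both sides and a capped length. Their bins were not matched to flank bins for distance to an edge. Outside all domains state 10 fell from 20.7% in the first 200 bp to 6.99% at 801 to 1000 bp. What distance or the length cap adds to the difference was not tested.

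Of the 13 states, 7 were higher in gaps than in outer flanks (53.8%), namely 5, 6, 7, 8, 10, 11 and 12, and 2 were lower (15.4%), states 4 and 14. State 6 made up 6.42% ± 1.48 of gap bins against 1.67% ± 0.351, and state 12 made up 5.42% ± 2.40 against 2.19% ± 0.758 (both adjusted p = 0.0063, exact permutation test). In gaps of 1 kb or less states 6 and 4 no longer passed (adjusted p = 0.46 and 0.55, exact permutation test) and state 5 turned to -0.093 points. In gaps of up to 5 kb state 4 turned to 0.0046 points. State 14 fell by 39.6 ± 5.95 points, to 46.4% ± 8.90, and its difference was -23.9 points with gaps of up to 5 kb. The call on state 8, 0.564% against 0.332%, was lost on leaving out any of 6 strains (129S1/SvImJ, A/J, C57BL/6J, DBA/2J, NZO/HlLtJ or PWK/PhJ), with an adjusted p of 0.056 in each (exact permutation test), and its direction turned in gaps of 1 kb or less.

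**Figure D3:**
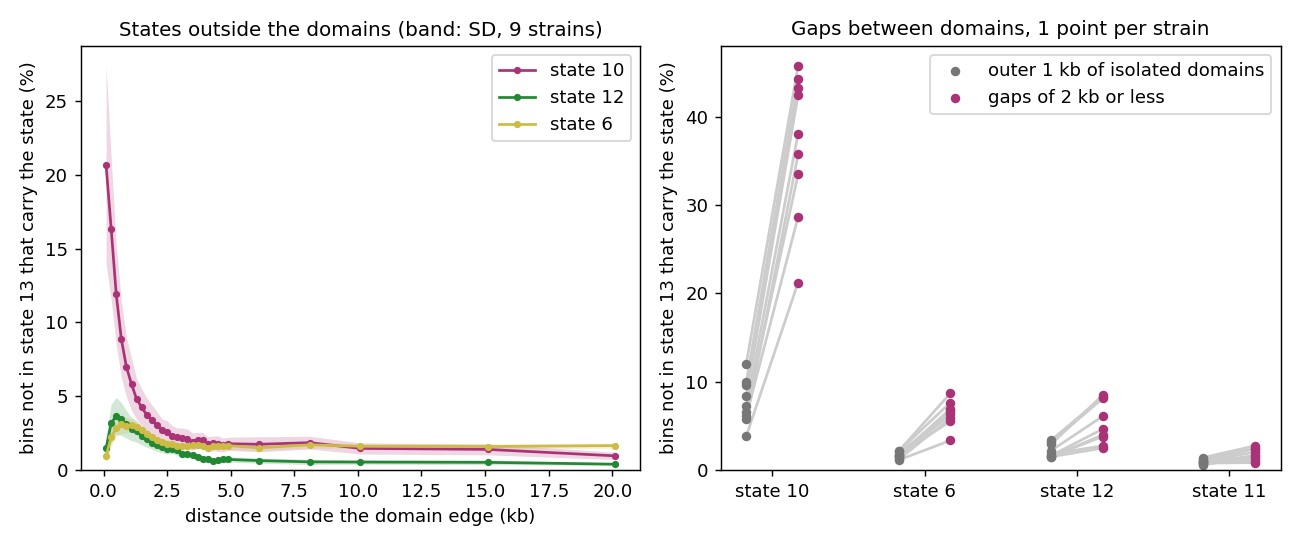
Left, mean percentage of bins not in state 13 that carry states 10, 12 and 6, by distance outside a domain edge in kb (bands, SD over 9 strains); state 10 is 20.7% in the first 200 bp. Right, the same percentage in the outer 1 kb of isolated domains (grey) and in gaps of 2 kb or less (purple), 1 point per strain joined by lines, with state 10 between 21.2% and 45.7% in gaps.

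A small part of the 1108 gaps of 2 kb or less held a known protein-coding start. Such starts fell at 35.4 per Mb in these gaps, which span 1.10 Mb in all. They fell at 8.18 per Mb inside domains and at 6.68 per Mb over all autosomal bins. No density was taken for the flanks of domains. In all 39 of 16457 genes with a known start began in such a gap (0.237%). Over the 39 starts and 9 strains, state 13 held 30.8% of start bins, state 10 held 30.5% and state 12 held 21.7%. By a slightly different measure, the commonest state over strains at all 16457 starts was 13 at 10.9%, 10 at 2.04% and 12 at 2.14%. The list members among the 39 were Hoxd1, Mnx1, Cacna1e, Gabrb1 and Npy, named here after their values were seen. Hoxd1, a patterning factor, had state 10 at its start in every strain except DBA/2J, which had state 13. Npy, which encodes the appetite-stimulating neuropeptide Y, had state 10 in 6 strains, state 12 in NZO/HlLtJ and WSB/EiJ and state 11 in PWK/PhJ. Gabrb1, a subunit of the receptor for the inhibitory transmitter GABA, had state 10 in 5 strains, state 12 in 3 and state 13 in A/J. At Mnx1, a motor neuron factor, and Cacna1e, a calcium channel, state 13 was the more frequent and state 10 was found in 3 strains each.

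Promoters in gaps held the most CG, as did the printed Hoxd1 and Npy sequences, whereas the printed Alb sequence, with 2 CG, was lower than most promoters outside domains. Over the 300-base windows of the RefSeq table (250 bases before to 50 after a start), the median number of CG was 26 for the 56 promoters in gaps of 2 kb or less (quartiles 13.8 and 31). It was 7 for the 742 promoters inside domains (quartiles 3 and 17) and 14 for the 19287 elsewhere (quartiles 4 and 25). Windows with 20 or more CG were 64.3% of gap promoters, 20.2% of domain promoters and 37.1% of all. The median GC content was 66.5% in gaps, 53.7% in domains and 57% elsewhere. Genes are not samples, so these values carry no test.

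The gene content of the domains was described with 12 lists of genes written from general knowledge. A start was known for 16457 of the 20665 autosomal protein-coding genes, and 635 of these (3.86%) began in a domain. Either end of the gene lay in a domain for 1190 of 20665 genes (5.76%), and any part of it for 1938 (9.38%). For long noncoding RNA genes, 430 of 9291 known starts (4.63%) lay in a domain. The lists of embryonic patterning and of neurons lay above these shares, and none of the 30 genes of the hepatocyte list was in a domain.

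Hox genes, the homeobox factors that set position along the body axis, were touched by a domain in 26 of 39 cases (66.7%), and 6 of 22 known starts (27.3%) lay in one. Other homeobox factors were touched in 56 of 101 cases (55.4%), with 19 of 70 starts (27.1%). Factors of the Sox, Fox, Gata, Tbx and bHLH families, which specify tissues, were touched in 35 of 77 cases (45.5%), with 14 of 51 starts (27.5%). Signalling ligands and antagonists of the Wnt, Bmp and Fgf type had 21 of 54 (38.9%) and 6 of 37 starts (16.2%). Neuronal channel, receptor and synaptic genes had the highest share, 37 of 48 touched (77.1%) and 14 of 33 starts (42.4%). The share touched can grow with gene length, which was not matched between the lists or to all genes. The median share of gene length inside domains was 42.6% for Hox genes, 18.8% for other homeobox genes and 8.46% for neuronal genes. It was 0% for the Sox, Fox, Gata, Tbx and bHLH list and for the signalling list, as for all protein-coding genes (0%).

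None of the 30 hepatocyte genes and none of the 18 autosomal ubiquitous genes had any part in a domain, against 9.38% of all protein-coding genes. Lists of this size would hold few such genes at that share. At all 23 known hepatocyte gene starts the commonest state over strains was 3 (15 starts) or 1 (8 starts). At the 13 ubiquitous starts it was likewise 3 (11) or 1 (2). Over all known protein-coding starts it was 3 at 35.7% and 1 at 12.4%. Of 32 autosomal genes for Polycomb subunits, the proteins that write and read H3K27me3 and its partner mark, Cbx7 alone overlapped a domain and none of 26 known starts lay in one. Markers of other liver cells were measured for the same reason. Krt7 of bile ducts, Col1a1 of stellate cells, Kdr of endothelium and Adgre1 and Ptprc of Kupffer cells and leukocytes overlapped a domain. That was 1, 1, 1 and 2 of 6 genes per list (16.7%, 16.7%, 16.7% and 33.3%), against 9.38% of all protein-coding genes. Most genes of each list overlapped none, and with 6 genes a list cannot be told apart from that share. Each list was small, and the part that RNA or chromatin from such cells plays in any state call was not tested.

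**Figure D4:**
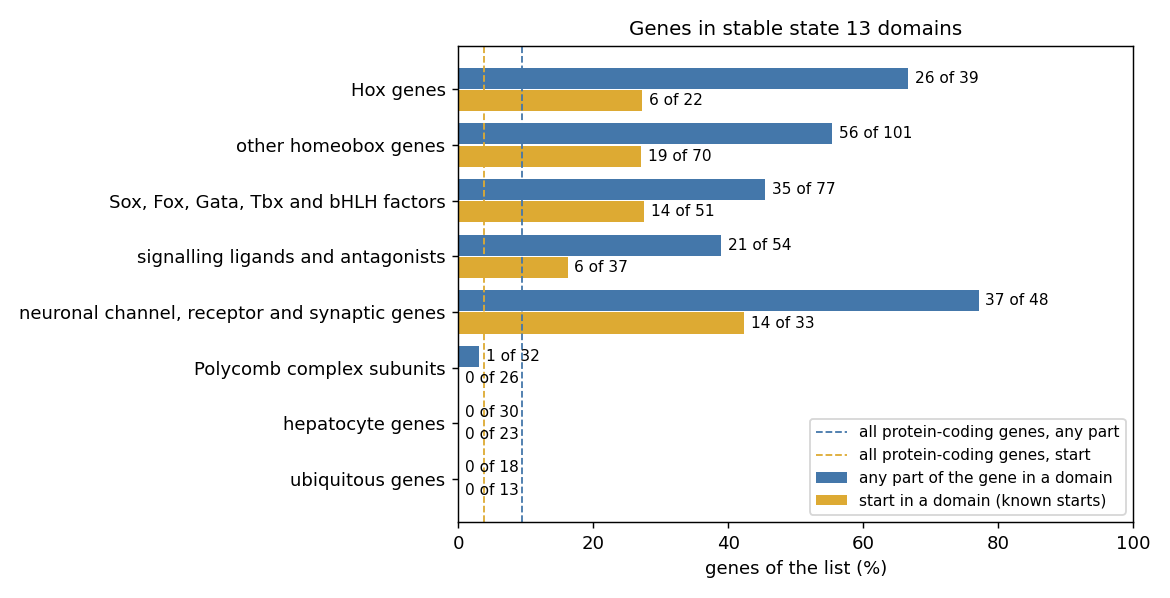
Percentage of the genes of 8 lists with any part in a domain (blue) or with a known start in one (yellow), with the numbers of genes beside the bars; dashed lines give the same for all protein-coding genes (9.38% and 3.86%). The 5 developmental and neuronal lists lie right of both lines, and hepatocyte and ubiquitous genes are at 0.

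Among Hox genes the longest domains over a start were those at Hoxb1 (35200 bp) and Hoxc4 (18000 bp), followed by the 8200-bp domain that holds the starts of both Hoxd11 and Hoxd12. The Hoxb1 domain was at least 94.9% state 13 in every strain, with a median of 100%. The Hoxc4 domain was at least 97.8%, again with a median of 100%. For other homeobox genes the longest were at Pou4f2 (31200 bp), a factor of retinal ganglion cells, Tlx1 (30000 bp), needed for the spleen, Pdx1 (25400 bp), the pancreas factor, and Six3 (24600 bp), a forebrain and eye factor. In the Pdx1 domain the lowest strain, PWK/PhJ, had 82.7% and the median was 100%. In the Tlx1 domain PWK/PhJ was again lowest, with 84.7%, and the median was 98.7%.

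In the Sox, Fox, Gata, Tbx and bHLH list the longest were at Foxi2 (33600 bp), Sox1 (31000 bp), a neural progenitor factor, Ptf1a (29200 bp), a factor of pancreas and cerebellum, and Neurog3 (19000 bp), which starts the endocrine pancreas. The Sox1 domain was at least 92.3% state 13 in every strain. The Neurog3 domain varied more, from 69.5% in PWK/PhJ to 100%, with a median of 100%. Among signalling genes the longest were at Wnt8b (22600 bp), Bmp5 (12800 bp), Fgf10 (9400 bp) and Fgf4 (8600 bp). The Wnt8b domain ranged from 95.6% to 100%, and the Fgf10 domain from 70.2% (WSB/EiJ) to 100%.

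Neuronal genes with the longest domains were Slc17a6 (27200 bp) and Slc32a1 (18200 bp), which load glutamate and GABA into synaptic vesicles, Scn8a (14000 bp), a sodium channel, and Drd2 (13000 bp), a dopamine receptor. The Slc17a6 domain was between 89.7% (NOD/ShiLtJ) and 99.3% state 13, with a median of 98.5%. The Drd2 domain reached down to 75.4% in PWK/PhJ, with a median of 100%. The single marker of another liver cell that began in a domain was Krt7, a keratin of bile ducts, where PWK/PhJ had 25% and the median was 100%.

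Of the 213 known starts of these 5 lists, 59 were in a domain and 154 were not. Of the 154 outside, 29 (18.8%) lay within 1 kb of a domain, against 1.71% of all protein-coding starts outside domains (271 of 15822). Among the 154, the commonest state over strains was 10 at 55, 13 at 51 and 12 at 22. Over all 16457 known protein-coding starts, inside and outside domains, it was 10 at 2.04%, 13 at 10.9% and 12 at 2.14%. Barhl2, a neural homeobox gene with no part in a domain, had state 10 at its start in 7 strains and state 13 in the other 2. Bsx, a homeobox gene of the hypothalamus, had state 13 at its start in all 9 strains but in a region shorter than 5 kb. Cacna1b, a neuronal calcium channel gene outside the domains, had state 10 in 7 strains. Hoxa11 and Hoxa13, of limb and urogenital patterning, had state 13 at their starts in 5 and 6 strains. Alx4, Calb1 and Calb2 were also outside the domains, and their starts were not known.

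The 4 Hox clusters differed in how much of their state 13 lay in domains. From the first to the last gene, state 13 covered a median of 92.2% of the Hoxc cluster (lowest 89.1%, highest 94.5% over strains), and domains covered 71.0% of it. In the Hoxb cluster the median was 88.7% (77.5% to 93.8%), with 66.1% in domains. In the Hoxd cluster it was 83.5% (80.4% to 87.0%), with 49.5% in domains. The Hoxa cluster was 79.2% state 13 (72.2% to 83.4%), yet domains covered 23.8% of it and touched 4 of its 11 genes. State 10 covered a median of 11.2% of the Hoxa cluster and 14.2% of the Hoxd cluster, 5.69% of the Hoxc cluster and 4.25% of the Hoxb cluster.

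Domains also formed chains, here called so where neighbours lay 5 kb or less apart. There were 1242 chains that together held 3154 domains (37.9%), and 29 chains spanned 100 kb or more. The longest, chr8:11949201-12482000, spanned 532800 bp with 14 domains and held Sox1. State 13 covered between 91.6% (CAST/EiJ) and 98.6% of it, gaps included, with a median of 97.4%. The next, chr13:45018401-45450800, spanned 432400 bp between Dtnbp1 and Gmpr and held Mylip and the longest single domain, chr13:45108801-45251000, which was at least 97.9% state 13 in every strain. The third, chr7:67812201-68189200, spanned 377000 bp beside and over Igf1r, the receptor of insulin-like growth factor. The fourth, chr15:102738201-102959800, led up to and over Hoxc13, Hoxc12 and Hoxc11 and was between 89.4% (PWK/PhJ) and 99.5% (DBA/2J) state 13. Other chains lay at Creb5 and Bmp2, beside Nkx2-1, between Zbtb40 and Wnt4, and over Hoxb13 and Hoxb9. These genes were named after their values were seen.

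The 20 longest single domains held no known start of a protein-coding gene. Of these, 12 overlapped no such gene, and the others overlapped A230072I06Rik, Creb5, Igf1r, Asic2, Sycp2, Arhgap20, Bmp2 and Fgf12. Whole genes could lie inside domains: 191 protein-coding genes were fully covered and 541 were covered over at least 50% of their length. Of genes of 20 kb or more, 110 of 9576 were covered to that extent. Sycp2, a protein of the meiotic synaptonemal complex, had 98.4% of its length in domains, and PWK/PhJ had the lowest state 13 share there, 78.9% against a median of 100%. Tbx18, a factor of heart and ureter, had 93.8% of its length in domains and Six2, a nephron progenitor factor, 88.4%. Arhgap20 had 97.0%.

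**Figure D5:**
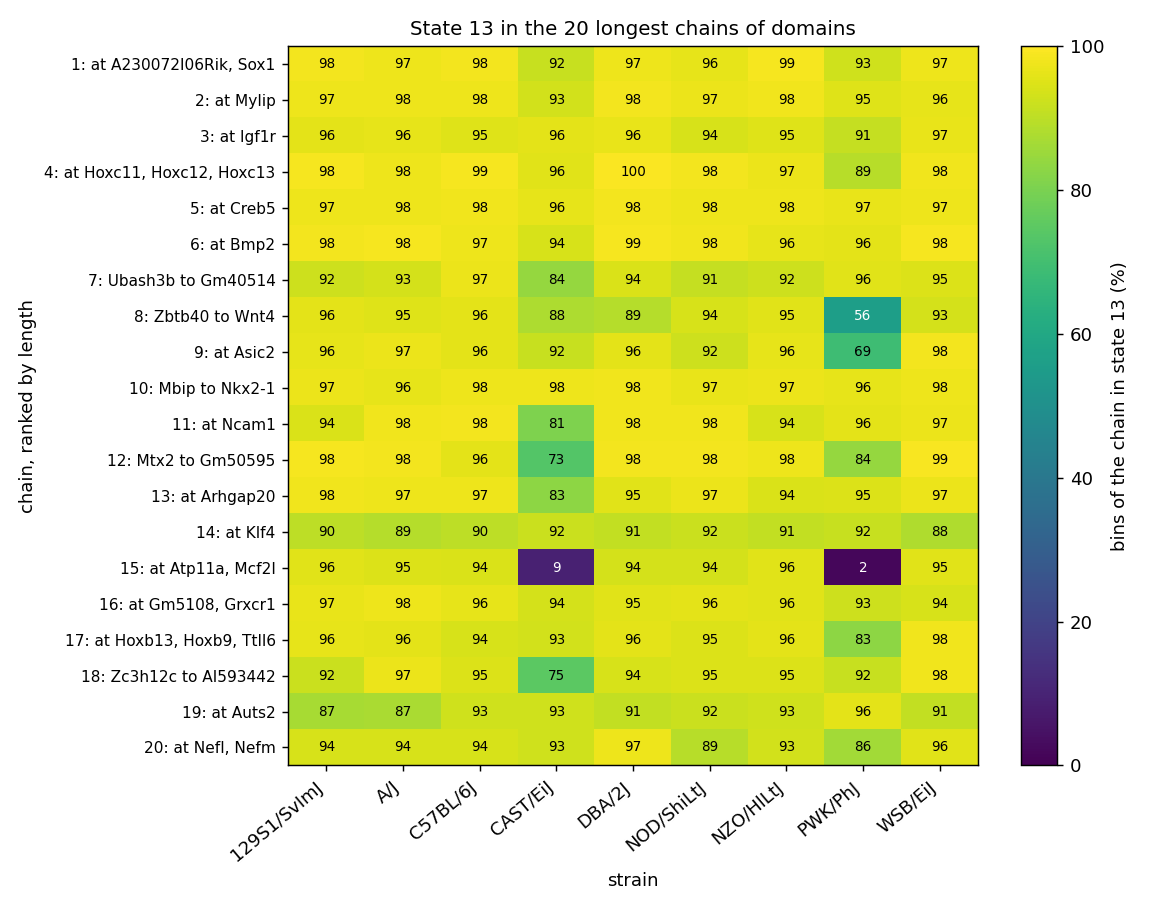
Percentage of bins in state 13 (colour and number) in the 20 longest chains of domains (rows, ranked by length and labelled by genes they overlap or lie between) in each strain (columns). Most cells lie above 80, and the chain at Atp11a and Mcf2l is at 9 in CAST/EiJ and 2 in PWK/PhJ.

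The largest domain missing from a strain lay at Mcf2l, a guanine nucleotide exchange factor. Chr8:12918201-12959800 (41600 bp) had no state 13 bin in CAST/EiJ or PWK/PhJ. It was wholly state 13 in the other 7 strains, as the choice requires. Every domain bin needs state 13 in at least 7 of 9 strains. State 14 took 93.8% of the Mcf2l domain in PWK/PhJ and 53.8% in CAST/EiJ. The chain it belongs to, chr8:12816201-12959800 with Atp11a, was 1.67% state 13 in PWK/PhJ and 9.33% in CAST/EiJ, and between 93.6% and 95.7% in the other 7. Other chains lost state 13 in part: PWK/PhJ had 56.2% in the chain between Zbtb40 and Wnt4 and 69.1% in that at Asic2, and CAST/EiJ had 73.2% in the chain next to Mtx2. Each of these loci was picked after its values had been seen.

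Absence was not limited to the wild-derived strains. Chr2:106094201-106104800 in Dcdc5 (10600 bp) had no state 13 bin in A/J and DBA/2J. It was wholly state 13 in the other 7 strains, which the choice again requires. A pair of domains over the pheromone receptor genes Vmn1r181 and V1rd19, chr7:23977201-23987600 and chr7:23995601-24006200, had none in DBA/2J and NZO/HlLtJ. Chr3:106760801-106772200 at Cd53, a leukocyte surface gene, had none in NZO/HlLtJ, and the other 8 strains had at least 86.0%. Chr4:111980001-111987000 at Skint7 had none in C57BL/6J and NZO/HlLtJ. Chr1:192424801-192448400 in the potassium channel gene Kcnh1 (23600 bp) had none in CAST/EiJ. In these loci the commonest state in the strain without state 13 was 14. The segmentations do not show whether reads of that strain aligned to mm10 at a missing domain, and this was not tested. Over all domains under 10% in a strain, state 14 took between 83.2% (C57BL/6J) and 98.7% (A/J) of bins. Among all autosomal bins not in state 13 the mean share of state 14 was 86.1%. At another locus, chr1:171560601-171566800 at Cd244a, state 4 took 74.2% in C57BL/6J.

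Hairpins of 15 of the 919 autosomal microRNAs in the RefSeq table (1.63%) lay in domains, below the 3.15% of the autosomes that domains cover. Mature sequences of 4 are shown with the seed, bases 2 to 8, in capitals, because they come from the Hox clusters and from domains on chromosome 9. They were picked after the list had been seen.
mmu-miR-196a-5p: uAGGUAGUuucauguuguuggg
mmu-miR-196b-5p: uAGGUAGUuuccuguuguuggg
mmu-miR-100-5p: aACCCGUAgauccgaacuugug
mmu-miR-125b-5p: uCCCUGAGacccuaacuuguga
The first pair share the seed AGGUAGU although they come from different clusters: Mir196a-1 lay in a 31000-bp domain of the Hoxb cluster (chr11:96265164-96265265) and Mir196b in an 8000-bp domain of the Hoxa cluster (chr6:52230081-52230165). The Mir196a-1 domain was at least 94.2% state 13 in every strain and the Mir196b domain at least 82.5%. Mir100 (5000-bp domain, at least 96% in every strain) and Mir125b-1 (8600-bp domain, at least 90.7%) lay on chromosome 9 in separate domains and have different seeds. By contrast, the 10200-bp domain with Mir1941 was 19.6% state 13 in PWK/PhJ, with a median of 100%.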

How the data were processed

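ChIP-seq of 4 histone marks and input in hepatocytes of 9 strains is represented by the authors' deposited segmentations, 1 per strain. Column 4 of these files is a category, the number of 1 of 14 states, and no count, signal or score. Per the file headers each file holds hepatocyte states of 1 strain. Build mm10, FastQC 0.11.5 and MACS 1.4.2 are named in the submitters' processing notes without a role. The segmentation tool, the marks of each state, and whether the states were learned on all strains together are not given in the sources used here. Libraries were grouped by the strain in their labels (117 libraries, 13 per strain). A file that joins all strains was identical to the strain files laid end to end and was not used. Depth is unknown, so no interval for counting error is given.

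Segments were written as 200-bp bins of the 19 autosomes with Python 3.11.15, numpy 2.4.6 and pandas 2.3.3. Domains, flanks and gaps were defined as in the report. Differences were tested within strains by a two-sided exact permutation test that flips signs over the strains (512 sign patterns), adjusted by Benjamini-Hochberg over 13 states. Inbred strains have common ancestors, so they are not wholly independent values. State 13 coverage of the domains chosen on all strains was not tested. On simulated data of 400000 bins, 300 of 300 planted domains were recovered. Because these domains were planted in simulated states, their recovery checks the code only. It does not measure how accurate the domain calls are on the deposited segmentations, which was not tested. Genes, promoters and microRNAs come from RefSeq tables of GRCm38.p6, the same assembly as mm10. A gene's start is the outermost end on the strand that the promoter table gives, and is known for 16457 of 20665 protein-coding genes. Of 428 list genes 423 are autosomal in the table and 291 of these have a known start.

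Genes were first named by rule: those that start in the 20 longest domains, the 4 of each list with the longest domain over their start, up to 3 members outside (alphabetical) for lists mostly touched by domains, and any hepatocyte, ubiquitous or Polycomb gene that starts in a domain. One gene that the rule names is not reported here. Genes of gaps, chains, lacking loci, the longest or most covering domains, and microRNAs, fall outside the rule and were named after their values were seen. The members and lists were chosen with earlier results of these data known. The alternatives tried were other minimum numbers of strains, other lengths, 1 bridged bin, other flanks, backgrounds and gaps, other rules for gene overlap, and each strain left out.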

Additional observations from a re-analysis of the deposited data

Results flagged for a closer look

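Of 14 sets of 9 strain values examined, 1 had a strain far from the other 8, where chance alone gives about 0.7. In domains defined without PWK/PhJ, 76.4% of its bins were in state 13, against 87.0% in CAST/EiJ and 95.3% or more in the other strains. State 13 over all autosomal bins was 11.4% in PWK/PhJ, close to the median of 11.3%. Coverage of the domains chosen on all 9 strains was not among the sets.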

How the results depend on the processing

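The number of domains was 3000 when all 9 strains had to carry state 13, 15861 with a minimum of 3 kb and 2354 with a minimum of 10 kb, and stayed within 1.5 times of 8325 under the other 13 alternatives. Protein-coding genes that started in a domain numbered 189 with all 9 strains, 265 with a minimum of 10 kb, 1190 by either end and 1938 by any part. Leaving out 1 strain at a time (at least 6 of the other 8) gave 8787 to 9880 domains and 671 to 756 gene starts. The held-out difference kept its direction and passed its test under 16 of 16 alternatives, with 7.92 to 8.97 points on leaving out 1 strain and 5.05 to 12.5 points over all of them. The version that required all 9 strains was not run, since 8 remain. State 10 kept its direction and passed in flanks (9.94 to 11.2 points on leaving out 1 strain) and gaps (28.6 to 30.7 points). Of 156 checks on gap states 8 reversed. In gaps of 1 kb or less the differences were -0.051 for state 1, -0.059 for state 2, -0.093 for state 5 and -0.21 points for state 8. In gaps of up to 5 kb they were 0.050 for state 3, 0.0046 for state 4 and 0.14 for state 9. Without CAST/EiJ and PWK/PhJ, added after seeing the data, state 2 was at -0.023; without both strains the state 10 difference was 11.6 points in flanks and 31.9 in gaps. The causes were not tested. No paired analysis was possible because each deposited segmentation pools the mice of its strain, so replicate numbers could not be used as a block; the tests compare places within a strain.

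The limits are those of the files. A strain gave 1 value, so variation between mice and the reads behind a state call could not be measured. State numbers carry no marks here. Gene starts were known for 79.6% of protein-coding genes, and either-end counts mix starts with ends. Genes in a list can share a domain, as Hoxd11 and Hoxd12 do.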

Other observations

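Gene families were also looked at by the start of their symbol, a choice made after seeing the data. Of 67 autosomal genes named Pcdh, the protocadherin cell adhesion genes, 48 (71.6%) had a part in a domain, but many protocadherin genes overlap one another in the genome. By either end the Pcdh share was 47.8%. A start was known for only 8 Pcdh genes, and 1 of these (12.5%) lay in a domain. Of 56 Krtap genes, which encode keratin-associated proteins of hair, 17 (30.4%) had a part in a domain. By either end it was also 30.4%, and by known starts 21.6% (11 of 51). Odorant receptor genes named Olfr had a part in a domain in 6.43% of cases (71 of 1104), below the 9.38% of all protein-coding genes. By known starts they were above all genes, at 5.44% (51 of 938) against 3.86%, and by either end they were at 6.43% against 5.76%. Pheromone receptors named Vmn were at 5.93% by any part (21 of 354), 5.08% by either end and 4.35% by known starts (14 of 322), so their order against all genes also depended on the measure. Zinc finger genes named Zfp were at 3.07% by any part (12 of 391) and 0.917% by known starts (3 of 327).

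State at the promoter varied with the number of CG over all 20085 promoter windows. Of windows with 0 to 4 CG, state 13 held 14.4% ± 1.27 of start bins and state 10 held 0.332% ± 0.108 (SD, n = 9 strains). With 5 to 9 CG the shares were 15.5% ± 2.08 and 2.55% ± 0.616, and with 10 to 19 CG they were 9.11% ± 0.843 and 3.94% ± 0.822. With 20 to 29 CG they were 5.08% ± 0.567 and 3.06% ± 0.691, and with 30 or more 5.45% ± 0.843 and 2.50% ± 0.778. State 13 was thus highest at 5 to 9 CG and state 10 at 10 to 19. These are descriptions over promoters that share a genome, with no test.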
